A study of Mus musculus with 24 samples.

Results

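The genes described here are 9 components of store-operated calcium entry: the endoplasmic reticulum calcium sensors Stim1 and Stim2, the plasma membrane channel genes Orai1, Orai2 and Orai3, the inositol trisphosphate (IP3) receptor genes Itpr1, Itpr2 and Itpr3, and the calcium pump gene Atp2a2. They were taken by symbol from both expression tables, in which they were 9 of 17501 genes for mouse embryonic stem cells (mESC) and 9 of 16024 genes for neural progenitor cells (NPC). Stim2 was chosen by its measured rise with the length of the Htt CAG repeat in the NPC knock-in libraries, and the other 8 genes were added as its pathway partners. The NPC knock-in values of Stim2 are therefore given as a description, without a test.

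Store-operated calcium entry refills the calcium store of the endoplasmic reticulum (ER). IP3 made by phospholipase C opens IP3 receptors in the ER membrane, the ER loses calcium, STIM proteins sense the loss through a luminal calcium-binding domain, move to contacts with the plasma membrane and open ORAI channels. The SERCA pump encoded by Atp2a2 then returns calcium to the ER, and in neurons STIM2 is known for keeping basal calcium entry and for synaptic spine maintenance.

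The study followed an allelic series of the Huntington's disease gene, in which a CAG repeat in the first coding exon of Htt encodes polyglutamine. RNA of 6 genotypes was sequenced in mESC and in NPC, with 2 biological samples per genotype and cell type, 24 libraries in all. The knock-in mESC lines carried a CAG tract at the Hdh (Htt) locus in the heterozygous state, labelled Q20, Q50, Q92 and Q111 for 20, 50, 92 and 111 repeats. The growth protocol gives 89 repeats where the labels give 92. The remaining genotypes were labelled Htt WT and Htt KO. All mESC lines were grown with leukemia inhibitory factor on a layer of irradiated CF-1 mouse embryonic fibroblasts, and the NPC were derived from mESC in N2B27 medium and kept on laminin with FGF and EGF. No clone, passage or differentiation identifier is given. Each repeat length is treated here as a single line, so length and line cannot be told apart.

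Values are normalised CPM (read counts scaled to library size) as deposited. Each table was scaled on its own, so levels are compared within a cell type, and an mESC level beside an NPC level is a side-by-side value only. The shallowest and deepest mESC libraries held 58546211 and 81502284 recovered reads, those of NPC 48525333 and 118038952, and all 9 genes passed the low-value filter in both tables. Htt itself did not separate the genotypes cleanly. In NPC it was at 137 and 177 CPM in WT and at 100 and 94.9 in the libraries labelled KO, a log2 difference of -0.67 (SE 0.14) with a limma adjusted p of 0.0673. It passed without WT replicate 1 (adjusted p = 0.0241) or WT replicate 2 (0.0388), with quantile normalization (0.0389) and with DESeq2 on the recovered reads (5.2e-05). In mESC the libraries labelled KO held 139 and 68.5 CPM against 124 and 113 in WT, with a log2 difference of -0.28 (SE 0.31, limma adjusted p = 1.00), the first lies above both WT libraries, and the difference was 0.22 without KO replicate 2. A count over the whole gene does not show which exons are left, and the KO labels are used below with that limit.

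Marker genes separated the cell types. Pluripotency markers summed to between 1992 and 3772 CPM in mESC (7 of 8 listed markers measured) and to between 4.72 and 108 CPM in NPC (5 of 8 measured), and neural progenitor markers summed to between 105 and 520 CPM in mESC and to between 2544 and 7135 CPM in NPC (7 of 8 measured in each). Within NPC the lines differed in these and other markers. Neural progenitor markers were lowest in Q20, at 2544 to 2708 CPM, against 4460 to 7135 CPM in the other genotypes. Oligodendrocyte lineage markers (6 of 6 measured) summed to 314 to 339 CPM in Q20, 25.6 to 26.8 in Q92 and 128 to 332 in the other genotypes. Pluripotency markers reached 106 and 108 CPM in Q20 and stayed at 26.5 CPM or lower elsewhere. Most of the Q20 sum was Pou5f1 (mean 88.7 CPM) and Nanog (13.3). Klf4 (3.51) and Esrrb (0.736) were lower in Q20 than in WT (5.15 and 2.56). Fibroblast markers (8 of 8 measured) summed to 252 to 311 CPM in Q20, 895 to 917 in Q50, 6.60 to 7.69 in Q92, 2.69 to 3.03 in Q111 and 29.4 to 38.0 in WT. Astrocyte markers (8 of 8 measured) summed to 3752 to 4008 CPM in Q20, 3400 to 4042 in Q50, 1127 to 1364 in Q92 and 1250 to 1262 in Q111. Neuron markers (8 of 8 measured) summed to 837 to 1013 CPM in Q20 and 1021 to 1718 in the other genotypes. By mean, Map2 (623 CPM) and Gap43 (51.7) were lowest in Q20. Tubb3 (76.6), Dcx (45.4), Stmn2 (116), Rbfox3 (1.57) and Snap25 (1.72) were highest there, and Syt1 (9.68) was below Q111 (16.9). In mESC, grown on fibroblasts, the fibroblast markers (7 of 8 measured) summed to 12.4 to 71.0 CPM. None of these lists had a marker under 0.5 CPM in all libraries of a cell type. The part of these cell types in the results was not tested. In bulk RNA, fewer cells of a type and less RNA per cell cannot be told apart.

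Promoter windows of 3 genes are shown because these gave contrasting NPC profiles: Stim2, which rose with repeat length, its paralogue Stim1, which did not, and Itpr2, which was lowest at the longest repeat. The sequences are RefSeq windows on GRCm38.p6, cut at the annotated gene start and printed 5′ to 3′ on the gene's strand, Stim2 at chr5:53998273-53998498 (+), Stim1 at chr7:102267569-102267805 (+) and Itpr2 at chr6:146502224-146502473 (-). Capitals mark GGGCGG on either strand, the core of the GC box bound by Sp1-family factors, and, at Stim2, the core of the NRF1 motif.
Stim2 promoter: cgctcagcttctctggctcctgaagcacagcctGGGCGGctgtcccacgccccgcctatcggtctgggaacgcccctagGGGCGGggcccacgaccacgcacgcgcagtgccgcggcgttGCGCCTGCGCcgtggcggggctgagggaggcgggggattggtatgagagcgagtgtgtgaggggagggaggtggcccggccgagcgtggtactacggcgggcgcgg
Stim1 promoter: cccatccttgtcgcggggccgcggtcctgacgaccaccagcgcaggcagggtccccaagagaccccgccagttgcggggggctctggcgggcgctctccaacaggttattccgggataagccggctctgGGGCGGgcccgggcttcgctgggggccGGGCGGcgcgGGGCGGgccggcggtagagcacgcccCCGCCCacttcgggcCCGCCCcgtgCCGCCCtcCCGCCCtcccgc
Itpr2 promoter: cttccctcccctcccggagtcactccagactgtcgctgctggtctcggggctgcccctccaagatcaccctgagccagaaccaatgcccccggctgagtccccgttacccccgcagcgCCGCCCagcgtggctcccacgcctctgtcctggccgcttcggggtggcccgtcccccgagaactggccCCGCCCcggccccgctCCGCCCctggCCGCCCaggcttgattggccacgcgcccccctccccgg

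The RefSeq table held a window of 300 bases, from 250 bases before to 50 after the start, for 7 of the 9 genes, without Itpr1 and Atp2a2. On either strand of the full window, GGGCGG occurred 8 times at Stim1, 5 times at Itpr2, 3 times at Stim2 and at Orai1, 2 times at Orai2 and 1 time at Orai3 and at Itpr3. It is a common motif, present in 35.7% of 32851 mouse promoter windows of the same length. The NRF1 core occurred 1 time, at Stim2, and in 4.60% of all windows. CCAAT, the core of the NF-Y box, occurred 2 times at Itpr2, 1 time at Stim2, Orai1 and Orai3 and in 37.4% of all windows. The E-box CACGTG occurred 2 times at Orai2 and 1 time at Itpr3, with 7.15% of all windows holding it, and the NFAT core TGGAAA was in none of the 7 windows and in 21.4% of all. GC content was 76.7% at Stim2, higher than in 97.3% of all windows, and 57.7% at Orai3, the lowest of the 7. These matches describe letters in a window and were not tied to any measurement.

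Stim2 lies at chr5:53998499-54121057 (GRCm38, plus strand, 12 exons in its longest transcript), 19.1 Mb beyond Htt on the same chromosome. In NPC it was at 71.9 and 76.9 CPM in Q20, 114 and 126 in Q50, 219 and 215 in Q92 and 324 and 313 in Q111. Each length stood above the one before without overlap, and replicates lay close together. The fitted slope corresponded to a log2 change of 2.04 (SE 0.11) from 20 to 111 repeats, and this is the value by which the gene was chosen. The WT libraries held 97.6 and 192 CPM and the libraries labelled KO 147 and 210. Ordered by mean, the genotypes ran Q20, Q50, WT, KO, Q92 and Q111. WT overlapped both Q50 and KO, whereas Q92 and Q111 stood above every other genotype. Q20 was the lowest genotype, with a log2 difference from WT of -0.87 (SE 0.29, no test) that was -1.36 without WT replicate 1 and -0.39 without WT replicate 2.

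**Figure D1:**
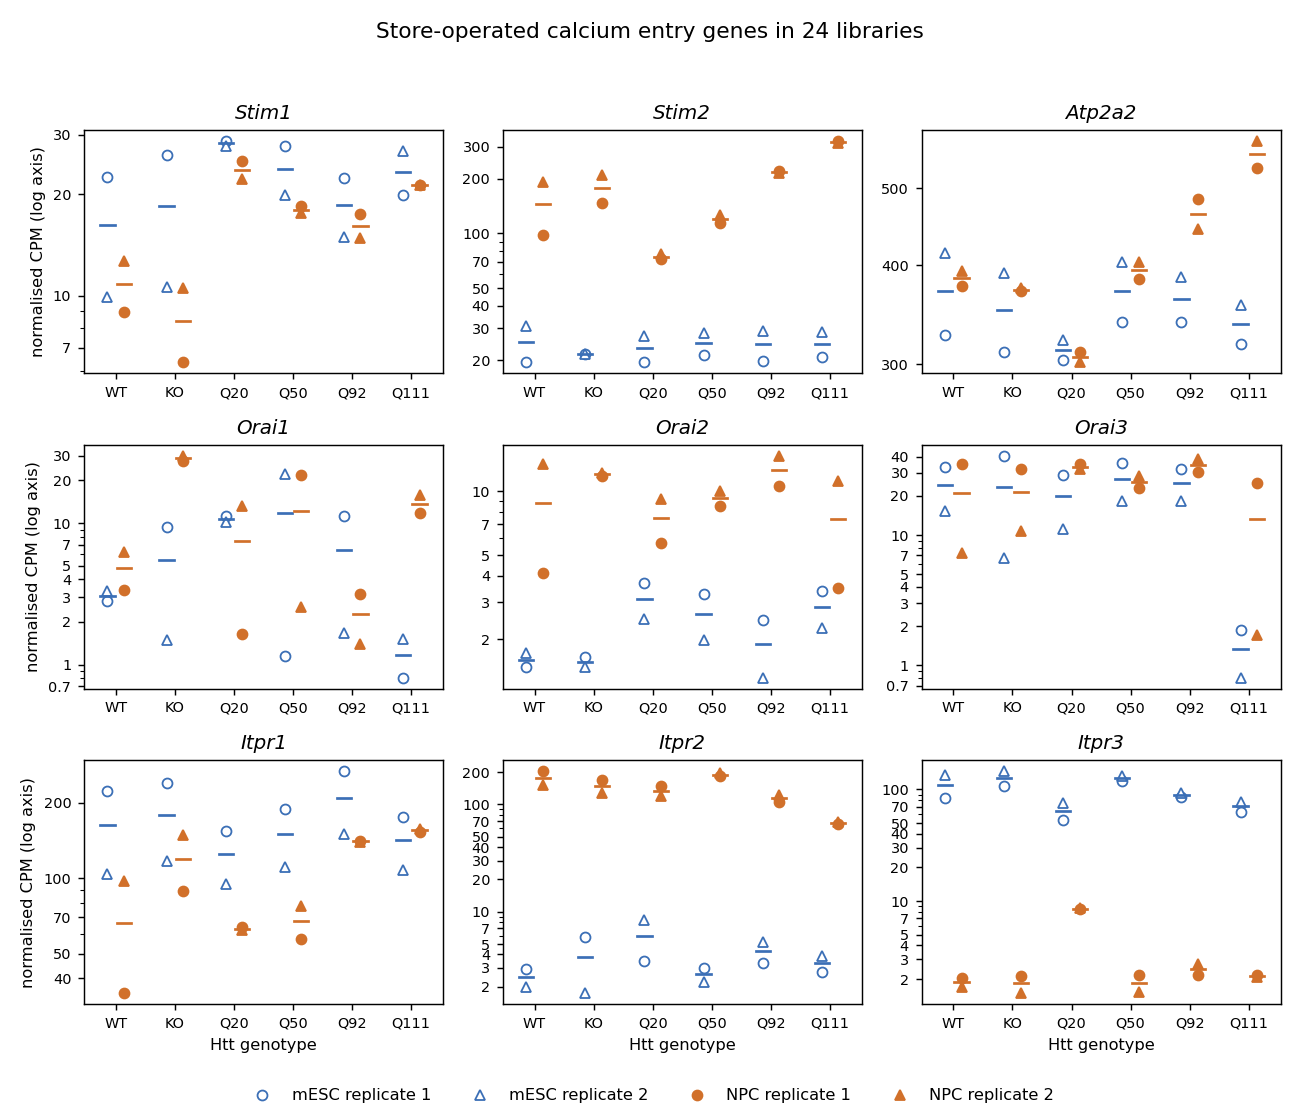
Normalised CPM (log axis) of the 9 genes in each of the 24 libraries by Htt genotype, with mESC as open blue and NPC as filled orange symbols, replicate 1 as circles, replicate 2 as triangles and short bars as the mean of each pair. Stim2 in NPC climbs from 71.9 CPM in Q20 to 324 in Q111 while staying between 19.5 and 31.1 in mESC, and Itpr3 in NPC is highest in both Q20 libraries.

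Per kilobase of merged exon, the median level over 12 libraries was 33.0 CPM for Stim2 in NPC, below Atp2a2 (64.0) and above Orai3 (13.7), Itpr2 (9.34), Itpr1 (5.09), Orai1 (3.91), Stim1 and Orai2 (1.69 each) and Itpr3 (0.238). The order differed between genotypes: in Q20 the mean level per kilobase was 14.5 CPM for Stim2 and 15.7 for Orai3. In mESC Atp2a2 was again highest (55.7), followed by Itpr3 (9.90), Orai3 (8.58), Itpr1 (8.31), Stim2 (4.24), Stim1 (2.15), Orai1 (1.34), Orai2 (0.349) and Itpr2 (0.215).

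The mESC values and the KO contrast were not used to choose Stim2 and could be tested. In mESC it was at 19.5 and 27.3 CPM in Q20, 21.6 and 28.5 in Q50, 19.9 and 29.1 in Q92 and 20.8 and 28.7 in Q111, with 19.6 and 31.1 in WT and 21.7 and 21.8 in KO. All neighbouring genotypes overlapped. The slope was 0.05 (SE 0.27, limma adjusted p = 1.00). The direction turned when Q20 replicate 1 (-0.13), Q92 replicate 2 (-0.014) or Q111 replicate 2 (-0.070) was left out. Replicate 2 was higher than replicate 1 in all 6 mESC genotypes, by a median log2 difference of 0.45. In mESC 41.4% of tested genes differed between replicates in 1 direction in all 6 genotypes, against 4.82% in NPC. In NPC, KO exceeded WT by 0.36 on the log2 scale (SE 0.29, limma adjusted p = 0.693), and the direction depended on which WT replicate was used. The difference was 0.84 (limma adjusted p = 0.0386) without WT replicate 2 and -0.13 without WT replicate 1. The mESC difference was -0.18 (SE 0.33, limma adjusted p = 1.00), or 0.14 without WT replicate 2.

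The genes whose log2 profile over the 12 NPC libraries was most like that of Stim2, among 10566 genes whose mean reached 5 CPM, were Hdac2 (r = 0.981), Mrps22 (0.980), Lsm2 (0.971), Mast2 (0.970) and Zw10 (0.970). They lie on chromosomes 10, 9, 17, 4 and 9. Of the pathway genes Atp2a2 was nearest (r = 0.896, rank 257) and Itpr1 next (0.875, rank 382), while Itpr2 ran against it (-0.70). Over the 12 mESC libraries the nearest genes were Taf11 (0.978), Pofut2 (0.944), Gorasp2 (0.942), Armcx5 (0.935) and Bcl7b (0.928) among 10443. None of these 5 was among the nearest 5 in NPC. The libraries behind each r share genotype pairs, so these are descriptions. Of the 3 nearest tested genes on each side of Stim2 in NPC, Tbc1d19 (0.43, SE 0.22), Rbpj (-0.24, SE 0.42), Smim20 (-0.70, SE 0.34), Pcdh7 (-0.54, SE 0.38), Arap2 (0.40, SE 0.32) and Rell1 (-0.11, SE 0.45), none passed the limma test for a slope, with adjusted p between 0.173 and 0.891.

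Stim1, the paralogue that senses larger falls in ER calcium, showed no slope that passed the test in either cell type. In NPC it was at 25.1 and 22.1 CPM in Q20, 18.4 and 17.6 in Q50, 17.5 and 14.8 in Q92 and 21.2 and 21.3 in Q111, with 8.93 and 12.7 in WT and 6.35 and 10.5 in KO. The 8 knock-in libraries all lay above the 4 WT and KO libraries. Its NPC slope was -0.21 (SE 0.24, limma adjusted p = 0.553). Q20 stood above WT by 1.08 on the log2 scale (SE 0.25, limma adjusted p = 0.0246). That call was lost without WT replicate 1 (adjusted p = 0.0690), Q20 replicate 1 (0.148) or Q20 replicate 2 (0.0870), and when the 2 genotypes were fitted alone (0.172). In mESC Stim1 ranged from 9.93 CPM in WT replicate 2 to 28.8 in Q20 replicate 1, every genotype overlapped the next in order, and the slope was -0.39 (SE 0.28, limma adjusted p = 1.00).

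Per kilobase of merged exon, Stim2 made up a median of 67.2% of the summed STIM level in mESC and 96.5% in NPC. With the longest transcript as the length these were 47.3% and 92.3%, so the order of the 2 genes in mESC depends on the length used and that in NPC does not. In NPC the Stim2 share was 85.3% and 87.5% at its lowest and highest in Q20 and 96.7% and 96.9% in Q111. The ratio of Stim2 to Stim1 CPM went from 2.86 and 3.48 in Q20 to 15.3 and 14.7 in Q111, and it was 10.9 and 15.2 in WT. The WT ratios overlapped those of Q92 (12.5 and 14.6) and of Q111 and lay above both Q20 ratios, with Stim1 lower and Stim2 higher in both WT libraries than in Q20.

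The ORAI genes encode the pore. Orai1, the main channel of immune cells, varied between replicates of the same genotype more than almost any gene of its table. In NPC it was at 3.35 and 6.25 CPM in WT, 27.6 and 29.8 in KO, 1.65 and 13.2 in Q20, 21.9 and 2.54 in Q50, 3.15 and 1.41 in Q92 and 11.7 and 15.7 in Q111. Both KO libraries lay above the other 10. KO exceeded WT by 2.40 on the log2 scale (SE 0.95), which did not pass across all genes (limma unadjusted p = 0.0338, adjusted p = 0.315). Its slope was 0.37 (SE 1.10, limma adjusted p = 0.841) and turned negative without Q20 replicate 1 or without either Q111 replicate. In mESC it was at 2.82 and 3.33 CPM in WT, 9.39 and 1.49 in KO, 11.2 and 10.2 in Q20, 1.15 and 22.2 in Q50, 11.2 and 1.68 in Q92 and 0.81 and 1.52 in Q111. Both Q111 libraries lay below all WT, Q20 and Q92 libraries, and the higher of them lay above the lower Q50 and KO libraries. The slope was -2.09 (SE 0.94, limma adjusted p = 1.00). The pooled replicate SD of Orai1 on the log2 scale was 1.33 in mESC and 1.10 in NPC, larger than in 98.3% and 97.9% of tested genes. An antisense gene, Gm2479, overlaps its exons, and whether counting used strand is not given, so reads of the 2 genes cannot be told apart.

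Orai3 showed the same spread and 1 further pattern. In mESC it was at 33.6 and 15.2 CPM in WT, 40.4 and 6.71 in KO, 29.1 and 11.2 in Q20, 35.9 and 18.4 in Q50, 32.1 and 18.3 in Q92 and 1.87 and 0.81 in Q111. Replicate 2 was lower in all 6 genotypes, and both Q111 libraries were below every other library. Q111 was below Q20 by a log2 difference of -3.07 (SE 0.81), which did not pass across all genes in limma (unadjusted p = 0.00442, adjusted p = 0.920). DESeq2 on the recovered reads gave -3.92 with an adjusted p of 0.00181. In NPC Orai3 was at 35.1 and 7.23 CPM in WT, 32.0 and 10.8 in KO, 35.3 and 31.9 in Q20, 23.1 and 28.4 in Q50, 30.4 and 38.2 in Q92 and 25.0 and 1.70 in Q111. The lowest NPC library was thus again a Q111 library, but its replicate lay within the range of the other genotypes. The NPC slope was -1.44 (SE 0.93, limma adjusted p = 0.300), and the mESC slope was -2.35 (SE 1.07, limma adjusted p = 1.00). The replicate SD was larger than in 94.4% of tested genes in mESC and 98.5% in NPC.

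**Figure D2:**
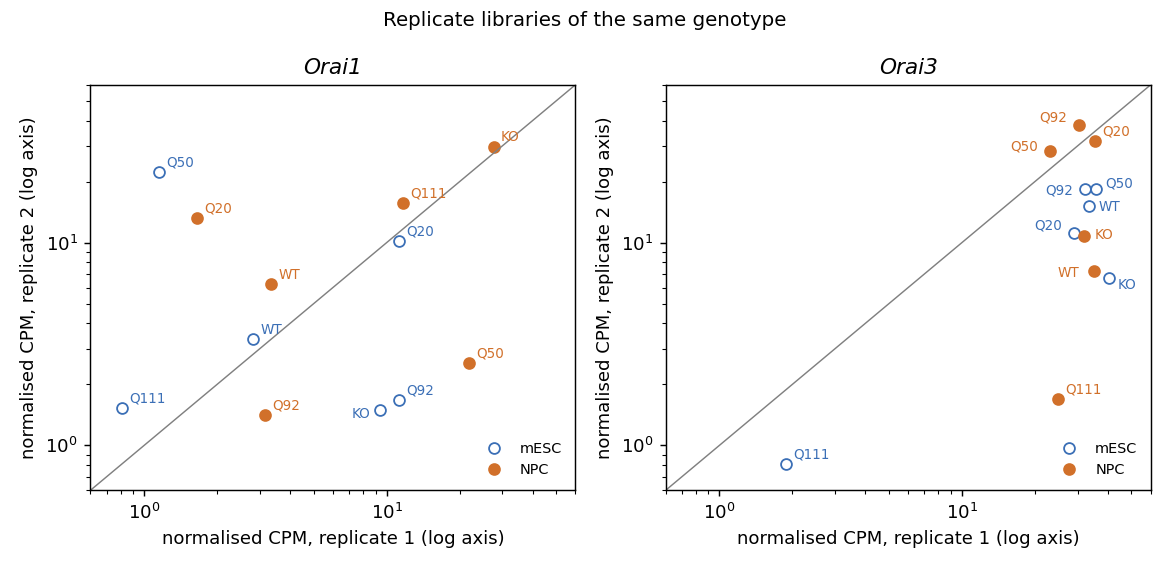
Normalised CPM of Orai1 and Orai3 in replicate 2 against replicate 1 (both log axes), 1 point per genotype and cell type, with equality as the grey line. Orai1 pairs such as mESC Q50 (1.15 and 22.2) and NPC Q50 (21.9 and 2.54) fall far from the line on opposite sides, and Orai3 in mESC Q111 (1.87 and 0.81) sits apart from the other genotypes.

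Orai2, which dampens the current of ORAI1 channels in some cells, was low throughout. In mESC it ranged from 1.32 to 3.68 CPM with a median of 2.12, and its slope was -0.23 (SE 0.33, limma adjusted p = 1.00). In NPC it ranged from 3.51 to 14.7 CPM with a median of 10.3. Its slope was 0.08 (SE 0.50, limma adjusted p = 0.924), and the direction turned without Q20 replicate 1, Q92 replicate 2 or Q111 replicate 2. Replicate 2 was higher in all 6 NPC genotypes. Per kilobase, Orai3 held the largest median share of the ORAI level in both cell types, 75.9% in mESC and 67.2% in NPC, but it ranged from 26.7% to 94.2% and from 8.38% to 90.9% between libraries. Orai1 held the largest share in some of them, with up to 72.1% in NPC.

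The IP3 receptor genes differed most in which paralogue each cell type used. Itpr3, a form prominent in epithelial and secretory cells, was at 53.1 to 145 CPM in mESC and 1.50 to 8.58 CPM in NPC. Itpr2, the main astrocyte form, was at 1.75 to 8.39 CPM in mESC and 65.8 to 204 CPM in NPC. Itpr1, the main neuronal form, was abundant in both, at 95.1 to 267 CPM in mESC and 34.9 to 157 CPM in NPC. As shares of the family per kilobase, Itpr3 and Itpr1 held medians of 55.4% and 43.3% in mESC and Itpr2 and Itpr1 held 65.0% and 31.5% in NPC. The order of Itpr1 and Itpr3 in mESC reversed with the longest transcript as the length (58.4% and 40.4%).

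Itpr1 rose with repeat length in NPC. It was at 63.8 and 62.1 CPM in Q20, 57.6 and 77.7 in Q50, 141 and 140 in Q92 and 153 and 157 in Q111. The Q20 and Q50 libraries overlapped, and all Q92 and Q111 libraries lay above them. The slope was 1.45 (SE 0.20, limma adjusted p = 0.00263). A fit on 1 mean value per line leaves 4 values. In that fit the Itpr1 slope had an SE of 0.31 and was not called, and neither was any of the 13206 genes. WT held 34.9 and 97.8 CPM and KO 88.7 and 149, so the WT pair spanned the Q20 and Q50 values. Against Q20 alone, Q92 (1.14, SE 0.43, limma adjusted p = 0.0823) and Q111 (1.29, SE 0.43, adjusted p = 0.0543) did not pass in the fit over all 6 genotypes. When fitted on the 2 genotypes alone, both passed (limma adjusted p = 0.00223 and 0.00181), and 46.6% and 50.8% of all genes were called. Both also passed with DESeq2 (adjusted p = 0.0395 and 0.0153), which called 34.5% and 38.2% of all genes. KO against WT was 0.96 (SE 0.43, limma adjusted p = 0.390), and 1.69 (adjusted p = 0.0163) without WT replicate 2. In mESC the Itpr1 slope was 0.37 (SE 0.39, limma adjusted p = 1.00), with replicate 2 lower in all 6 genotypes, and the difference between the NPC and mESC slopes, 1.08 (SE 0.46), did not pass (limma adjusted p = 0.198). Exons of Gm44101 and Gm44040 overlap those of Itpr1 on the other strand.

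Itpr2 ran the other way at the longest repeat. In NPC it was at 148 and 119 CPM in Q20, 186 and 195 in Q50, 105 and 124 in Q92 and 65.8 and 69.2 in Q111, with 204 and 153 in WT and 169 and 128 in KO. Both Q111 libraries were below all others. Q111 was below Q20 by a log2 difference of -0.97 (SE 0.20, limma adjusted p = 0.00894), and the call was lost without Q20 replicate 1 (adjusted p = 0.0707) or Q111 replicate 1 (0.0583). The slope over all 4 lengths, -1.01 (SE 0.34), did not pass (limma adjusted p = 0.0682), and Q50 lay above Q20. It passed with quantile normalization (adjusted p = 0.0340), with DESeq2 (0.0120) and without Q20 replicate 2 (0.0469). Astrocyte markers were lower in Q92 and Q111 than in Q20 and Q50, with 4 of 8 falling in the slope test, and their part in this result was not tested. In mESC its slope was -0.32 (SE 0.42, limma adjusted p = 1.00), and 0.22 without Q20 replicate 2.

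Itpr3 marked the Q20 line in NPC. It was at 8.54 and 8.58 CPM in Q20 and between 1.50 and 2.74 CPM in the other 10 libraries. Q20 exceeded WT by 1.73 on the log2(CPM + 1) scale (SE 0.19, limma adjusted p = 0.000394), which understates the change of so low a gene. Q50, Q92 and Q111 were below Q20 by log2 differences of -1.76, -1.48 and -1.61 (SE 0.19 each, limma adjusted p = 0.00034, 0.000743 and 0.000506). The slope was -1.29 (SE 0.48, limma adjusted p = 0.0900), while the Q50, Q92 and Q111 libraries lay between 1.52 and 2.74 CPM with no order by length. It passed against the log2 of the length (adjusted p = 0.0276), with edgeR (0.0492), with DESeq2 (0.0181) and without Q50 replicate 2 (0.0335). Pou5f1, a defining pluripotency gene, was likewise at 88.7 CPM in Q20 and at 0.378 CPM or lower as the mean of each other NPC genotype. Nanog (13.3 CPM) and, at a low level, Tdgf1 (0.626) were also highest in Q20. Esrrb (0.736) was lowest there, and Klf4 (3.51) was below every genotype but Q50 (2.40). Itpr3 was abundant in mESC. The part of pluripotent cells in the Itpr3 value was not tested. In mESC Itpr3 was at 83.7 and 136 CPM in WT, 108 and 145 in KO, 53.1 and 76.2 in Q20, 120 and 132 in Q50, 85.6 and 93.0 in Q92 and 63.3 and 77.7 in Q111. Q20 lay below WT and Q50 without overlap. Q20 against WT was -0.74 (SE 0.28, limma adjusted p = 0.327), and Q50 against Q20 was 0.97 (SE 0.28, adjusted p = 0.550). With replicate number as a block, since same-numbered mESC libraries deviated together, both passed (adjusted p = 0.0301 and 0.0441), and the block raised the calls among all genes to 10.6% for Q20 and 0.984% for Q50. The antisense gene Itpr3os overlaps its exons.

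**Figure D3:**
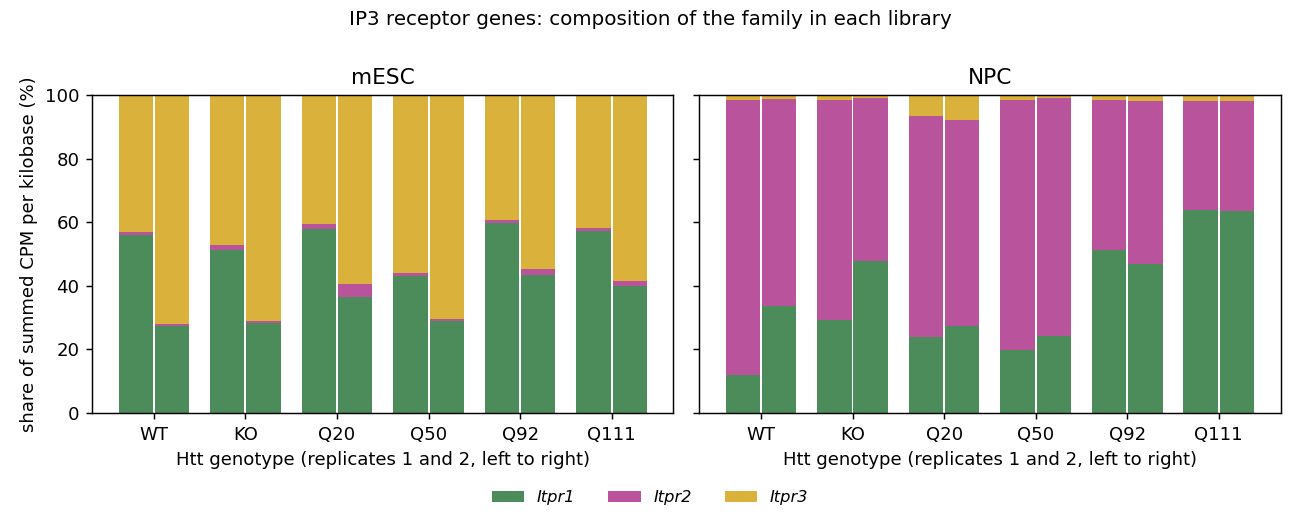
Share of Itpr1, Itpr2 and Itpr3 in their summed CPM per kilobase of merged exon (percent, stacked to 100) in each library, with mESC on the left, NPC on the right, and replicates 1 and 2 side by side for each Htt genotype. In NPC the mean Itpr1 share is 25.7% in Q20, 21.9% in Q50, 49.0% in Q92 and 63.8% in Q111, with Itpr2 at 67.1%, 76.8%, 49.3% and 34.4%.

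Within the IP3 receptor family the leading paralogue differed between the NPC lines. Itpr1 held 24.1% to 27.4% of the family level in Q20, 19.7% to 24.2% in Q50, 46.8% to 51.2% in Q92 and 63.6% to 64.1% in Q111. Itpr2 led in both Q20 and both Q50 libraries and Itpr1 led in both Q111 libraries, while the Q92 replicates fell on either side of equality. In WT the Itpr1 share was 12.0% and 33.7%, and in KO 29.3% and 48.0%. With the longest transcript as the length, Itpr1 already led in Q92, with a mean of 58.6%. The ratio of Itpr1 to Itpr2 CPM, which needs no length, was 0.430 and 0.523 in Q20, 0.310 and 0.399 in Q50, 1.34 and 1.13 in Q92 and 2.32 and 2.27 in Q111.

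Atp2a2, the widely expressed SERCA pump gene, had the smallest replicate spread of the 9 in NPC and rose with repeat length. It was at 311 and 302 CPM in Q20, 385 and 403 in Q50, 484 and 444 in Q92 and 531 and 574 in Q111. Each length stood above the one before without overlap. The slope was 0.79 (SE 0.12, limma adjusted p = 0.00362). With 1 mean value per line its SE was 0.28 and it was not called. Against Q20 the log2 differences were 0.36 in Q50 (SE 0.10, limma adjusted p = 0.0387), 0.60 in Q92 (adjusted p = 0.00350) and 0.85 in Q111 (adjusted p = 0.000609). The first of these was lost without any 1 of the 4 libraries behind it (adjusted p from 0.112 to 0.181) and with quantile normalization (0.150). WT held 377 and 394 CPM and KO 371 and 375, between Q20 and Q92, and Q20 was below WT by a log2 difference of -0.33 (SE 0.10, limma adjusted p = 0.0651). For Q20 against WT, DESeq2 on the recovered reads gave -0.30 with an adjusted p of 0.00431 and called 20.6% of all genes. The replicate SD of Atp2a2 in NPC was smaller than in all but 1.13% of tested genes. In mESC it was at 304 and 322 CPM in Q20, 339 and 404 in Q50, 339 and 386 in Q92 and 318 and 357 in Q111, with a slope of 0.09 (SE 0.16, limma adjusted p = 1.00). The NPC slope exceeded the mESC slope by 0.70 (SE 0.19, limma adjusted p = 0.0454), a call that was lost in 11 of the 16 fits without 1 library (adjusted p up to 0.120, among them either Q20 and either Q111 library of NPC) and under quantile (0.175) and median-of-ratios scaling (0.0664). For the other 7 tested genes the difference of slopes ran from -1.29 (Itpr3) to 2.46 (Orai1) and did not pass (limma adjusted p from 0.198 to 0.832). Exons of Gm43361 overlap those of Atp2a2 on the other strand.

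**Figure D4:**
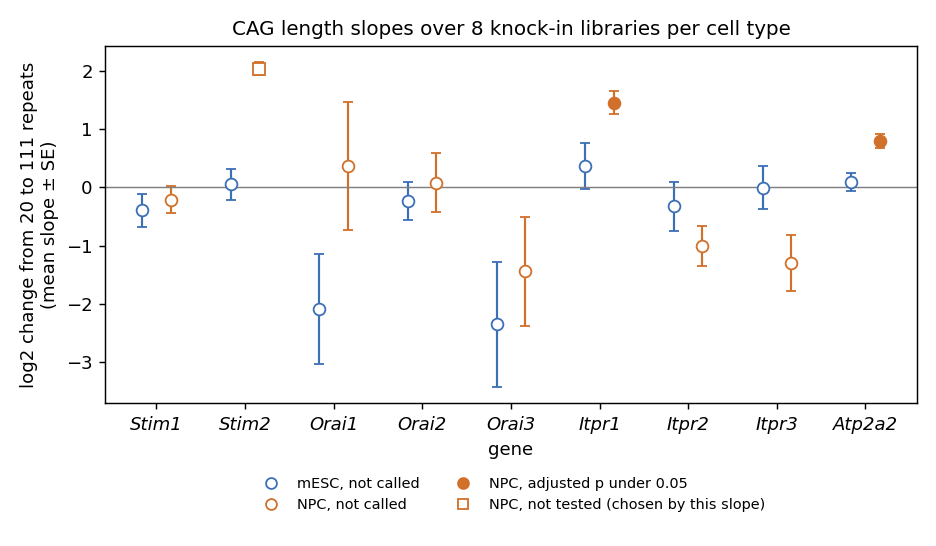
Slope of each gene on CAG length over the 8 knock-in libraries of each cell type, as the log2 change from 20 to 111 repeats with its standard error, in mESC (blue) and NPC (orange), where filled circles passed the limma test and the open square is the slope that chose Stim2. Itpr1 (1.45) and Atp2a2 (0.79) in NPC are the 2 filled points, and the Orai1 and Orai3 bars are the widest.

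In the NPC slope test 2 of the 8 tested genes, Itpr1 and Atp2a2, rose and none fell, with a median slope of -0.07. Of all 13206 genes 22.0% were called, 12.0% rising and 10.1% falling, with a median of 0.04. Called genes were 2 of 8 for Q20 against WT (14.5% of all genes), 2 of 8 for Q50 against Q20 (18.8%), 2 of 8 for Q92 against Q20 (25.8%), 3 of 8 for Q111 against Q20 (28.3%) and 1 of 8 for the difference of slopes (4.86% of 12321 genes). The comparisons with Q20 share the same 2 Q20 libraries. With counts this small, shares near those of all genes are not a result about the pathway. Of all NPC genes 4.85% stepped one way at every length without overlap, 2.92% rising, and Stim2, chosen by its rise, and Atp2a2 were among those that rose. For NPC KO against WT none of the 9 was called by limma (1.42% of all genes), with 1, Orai1, at an unadjusted p under 0.05 and none by edgeR or DESeq2. Without WT replicate 2, Stim2 and Itpr1 passed, and the share of all genes called was then 11.9%. In mESC none of the 9 was called by limma in the slope test (0% of 13916 genes) or for KO (0.0144%), Q20 (0.323%), Q50 (0.00719%), Q92 (0.00719%) or Q111 (0%). The numbers at an unadjusted p under 0.05 were 0, 0, 1, 1, 0 and 1. In these 6 comparisons edgeR called none and DESeq2 called 1, Orai3 in Q111, where it called 0.467% of all genes. In mESC 0.0359% of genes stepped one way over the lengths without overlap, and none of the 9 did.

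A wider list of calcium genes gave the context in NPC. It held regulators of store-operated entry, TRPC channels, other ER channels and pumps, luminal calcium-binding proteins, extrusion pumps and exchangers, mitochondrial transporters, phospholipases C, and the calmodulin, calcineurin and NFAT genes that read the calcium signal. Of 78 tested list genes 10 rose and 13 fell with repeat length (29.5% called, against 22.0% of all genes), with a median slope of -0.10 against 0.04 over all genes. Leaving out Q20 replicate 1 gave 9 list calls beside 1213 of the 13206 genes, Q20 replicate 2 gave 10 beside 1453, and Q111 replicate 1 gave 13 beside 1696, so the calls over all genes dropped as well. In Q111 against Q20, 14 rose and 21 fell (44.9% called, against 28.3% of all genes). The list was chosen with results of these data known, and the counts are a description.

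Of 10 luminal calcium-binding genes 4 rose and 1 fell with repeat length, with a median slope of 0.61, where 12.0% of all genes rose and 10.1% fell. In Q20 against WT 4 of these 10 fell and none rose, with a median of -0.55. Of all genes 14.5% were called in that comparison, with a median of -0.02. In Q111 against Q20, Calr, the ER calcium buffer calreticulin, was higher by 1.57 (SE 0.18, limma adjusted p = 0.000499) and Hspa5, the ER chaperone BiP, by 1.42 (SE 0.23, adjusted p = 0.00287). Calr did not follow length step by step, with mean levels of 517 CPM in Q20, 1048 in Q50, 666 in Q92 and 1539 in Q111, and 798 in WT. Hspa5 was at means of 445 CPM in Q20, 1191 in Q111 and 816 in WT. Of 7 plasma membrane and Golgi extrusion genes 4 fell and 1 rose with repeat length. In Q20 against WT, where 14.5% of all genes were called, 2 of the 7 rose and 1 fell. Atp2b4, a plasma membrane calcium pump, fell by 3.60 (SE 0.71, limma adjusted p = 0.0105), from means of 20.2 and 36.2 CPM in Q20 and Q50 to 3.73 and 1.41 in Q92 and Q111. Atp2b1, the widely expressed pump of the same family, rose by 1.14 (SE 0.16, adjusted p = 0.00308), from 157 CPM in Q20 to 330 in Q92 and 312 in Q111. WT held 212 and 321 CPM and KO 232 and 322, so both pairs spanned the Q111 values (305 and 320). The 2 pumps of 1 family thus moved in opposite directions.

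Among signal readers, the calmodulin gene Calm2 rose (1.28, SE 0.13, limma adjusted p = 0.00101), and the transcription factor gene Nfatc4 fell (-3.47, SE 0.67, adjusted p = 0.0102). Calm2 was at means of 336 CPM in Q20 and 817 in Q111, with 255 and 578 in the WT libraries. Nfatc4 was at a mean of 31.1 CPM in Q20 against 9.23 in WT and 0.894 in Q111. In all, 3 of 15 calmodulin, calcineurin and NFAT genes rose and 2 fell. Of 9 phospholipase C genes, whose products make IP3, 3 fell and none rose, with Plcg2 the largest (-2.72, SE 0.81, limma adjusted p = 0.0449). Plcg2 was at a mean of 1.61 CPM in WT, 19.0 in Q20, 27.6 in Q50, 1.55 in Q92 and 5.39 in Q111, so that Q20 and Q50 were the 2 high genotypes. Of 14 regulators of store-operated entry 1 rose and 1 fell, of 12 other ER genes 1 rose and 1 fell, of 8 mitochondrial genes 1 fell, and of 3 TRPC genes none was called. The fibroblast and astrocyte markers given above fell in the same NPC lines, 6 of 8 and 4 of 8 in the slope test, and their part in these falls was not tested. For NPC KO against WT limma and edgeR called none of the 78 list genes, 9 had an unadjusted limma p under 0.05, DESeq2 called 6 (6.85% of all genes), and limma called 4 without WT replicate 2 (11.9% of all genes). In mESC limma, edgeR and DESeq2 called none of 73 in the slope test or for KO, with 3 and 2 at an unadjusted limma p under 0.05.

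**Figure D5:**
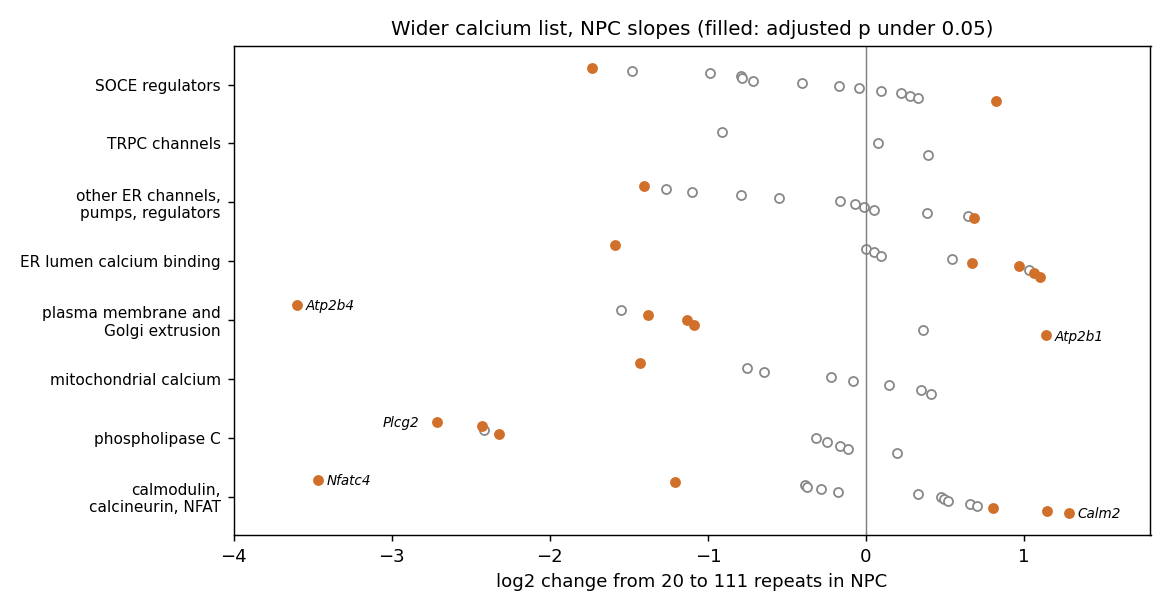
NPC slopes of the 78 tested genes of the wider calcium list (log2 change from 20 to 111 repeats, 1 point per gene, rows are the groups of the list), with filled points for genes that passed the limma test. The 4 rising ER lumen genes lie right of 0, and Atp2b4 (-3.60), Nfatc4 (-3.47) and Plcg2 (-2.72) lie farthest left.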

How the data were processed

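Bulk RNA was sequenced from 24 libraries (75-base paired reads, per the labels' protocols). CASAVA 1.8, STAR and the GRCm38.p6 build are named, per the submitters' processing notes. The counting tool, use of strand, normalisation and gene filter are not given in the sources used here. The deposited tables, 1 per cell type, hold 1 normalised CPM signal per gene and library. Column totals ran from 900342 to 1080734, so the values are not plain CPM, and they were treated as a normalised signal. The low values were whole multiples of 1 read in each column (100% within 0.02 reads), which gave whole reads back for the count tests.

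Tests covered genes that reached 1 CPM in 2 or more libraries (13916 in mESC, 13206 in NPC, 12321 in both). limma 3.58.1 in R 4.3.3 was run on log2(CPM + 1) with a variance trend, two-sided, Benjamini-Hochberg over all tested genes, threshold 0.05. Genotypes were compared in a model of 6 group means. The CAG slope used the 8 knock-in libraries of a cell type, and the difference of slopes used 16. Fold changes are on the log2(CPM + 1) scale. The 2 samples of a group carry a number only, so p-values between genotypes measure the spread between these samples, and those of slopes also the departure of the lines from a straight line. On the recovered reads of the NPC slope, edgeR 4.0.16 called 2731 genes and DESeq2 1.42.0 called 4109. Fits were tested on simulated data. Lengths come from GENCODE M21.

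The naming rule covered all 9 genes and Htt in each comparison, and up to 3 rising and 3 falling calcium-list genes. It also covered the 5 genes most like Stim2 and its 3 nearest tested neighbours on each side. Not every value under this rule is printed. One gene that the rule would name is not reported here. Members and lists were chosen with earlier results of these data known.

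Replicate numbers were checked as pairs. In mESC all 15 genotype pairs gave same-numbered libraries that deviated together (r from 0.250 to 0.547), so the block is printed where it changed a call. In NPC 3 of 15 did (r from -0.05 to 0.467). Alternatives were other pseudocounts, filters, scalings, length codings, count tests, the replicate block and leaving out each library.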

Additional observations from a re-analysis of the deposited data

Results flagged for a closer look

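The slope of Atp2a2 on CAG length differed between the cell types by the test of the difference itself: the NPC slope exceeded the mESC slope by 0.70 on the log2 scale from 20 to 111 repeats (SE 0.19, limma adjusted p = 0.0454 over 12321 genes), with an NPC slope of 0.79 and an mESC slope of 0.09. Over all of its alternatives the difference ranged from 0.44 to 0.79 and its adjusted p from 0.0223 to 0.175. It lost its call under quantile and median-of-ratios scaling and without any 1 of 11 libraries, as given above.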

How the results depend on the processing

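Of 672 gene-level values computed under alternatives for 43 results, 606 were unchanged. Unchanged means the same direction and side of the threshold. For the Stim2 values without a test it means the same direction and a move smaller than its NPC replicate SD. A further 14 values reversed, all of them with 1 library left out. The ranges of those were -0.46 to 1.17 for the NPC slope of Orai1, -0.24 to 0.71 for Orai2 and -0.15 to 0.037 for Htt, -0.13 to 0.84 for Stim2 in NPC KO against WT, -0.13 to 0.19 for Stim2 and -0.50 to 0.22 for Itpr2 in the mESC slope, and -0.50 to 0.14 for Stim2 and -0.78 to 0.22 for Htt in mESC KO against WT. The NPC slope called 2 of the 8 tested genes (22.0% of all genes), 0 with 1 mean value per line, a fit that called 0 of all 13206 genes, and 4 with DESeq2 (31.1% of all genes), which added Itpr2 and Itpr3. With a mean of at least 5 CPM, which removes Itpr3 in NPC, 1 gene was called for Q20 against WT, 1 for Q50 and 1 for Q92. Of the 10566 genes left by this filter, 809, 1375 and 2077 were called in these comparisons. With the filter of 1 CPM in 2 libraries, 1920, 2478 and 3407 of 13206 genes were called. Fitting both genotypes alone gave 1 for NPC Q20 against WT (3.60% of all genes), and quantile normalization gave 1 for Q50 (20.7%). The NPC count was 1 for Q50 with the replicate block (19.0% of all genes), where Atp2a2 missed the threshold (limma adjusted p = 0.0514). With the block Itpr1 passed in Q111 (limma adjusted p = 0.0328, 30.1% of all genes called). In mESC the replicate block gave 1 call, Itpr3, for Q20 against WT (10.6% of all genes) and 1 for Q50 (0.984%). There DESeq2 gave 1, Orai3, for Q111 (0.467%). The block changed no other call among the 9 genes and Htt. The difference of slopes gave 0 calls under each of the quantile (3.73% of all genes) and median-of-ratios scalings (4.63%). Leaving out 1 library moved the counts for NPC KO, Q20 against WT, Q50 and the difference of slopes, and the calls over all genes changed as well. The wider list had 23 NPC slope calls, 0 with 1 mean per line and 13 with quantile normalization (17.9% of all genes). It had fewer without some single libraries, as given above. Its NPC KO count was 0, 6 with DESeq2 and 0 to 4 without 1 library (4 without WT replicate 2). With 2 libraries per genotype the slopes and differences of Orai1 and Orai3 have standard errors between 0.81 and 1.54 on the log2 scale. The cause of these shifts was not tested.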

Other observations

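In the wider calcium list the difference between the NPC and mESC slopes passed the limma test for 4 of 71 genes, against 4.86% of all genes, and for 10 with the replicate block, where 8.16% of all genes were called. Calm2, a calmodulin gene, was higher in the NPC slope by 1.34 (SE 0.27, adjusted p = 0.0118). Plcd1, a phospholipase C gene, gave -2.39 (SE 0.52, adjusted p = 0.0190), with NPC means of 26.1 CPM in Q20 and 2.72 in Q111 and 13.5 in WT. Rcn3, a calcium-binding protein of the ER lumen, gave -1.71 (SE 0.40, adjusted p = 0.0253), from 49.8 CPM in Q20 to 11.9 in Q111 with 56.0 in WT. Slc8b1, the mitochondrial sodium-calcium exchanger, gave -1.19 (SE 0.31, adjusted p = 0.0425), from 11.1 CPM in Q20 to 3.14 in Q111 with 5.66 in WT.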
